A study of Mus musculus with 16 samples.

Results

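Between E12.5 and E14.5 of mouse gestation the fetal liver is the main blood-forming organ of the embryo, and at the same time its own hepatocytes begin to mature. The comparison described here set 4 arrays at E14.5 against 4 arrays at E12.5, all from livers whose embryos did not carry the GATA1s allele, which encodes a short form of the red cell and megakaryocyte transcription factor GATA1. These 8 arrays are 8 of the 16 in the series. They were chosen by their labels: WT, which the labels call wild type, and ERG Tg, which carried a transgene of ERG, a transcription factor of blood stem cells, megakaryocytes and endothelium. Each genotype had 1 array labelled female and 1 labelled male at each stage. Both genotypes thus had full-length GATA1 only, and the 2 genotypes were kept apart in the fit as a block. The other 8 arrays carried GATA1s, with or without the ERG transgene, and enter only where a difference between stage changes was tested. Of 19934 genes with 1 symbol on the array, 15195 passed a filter on dim probe sets and were tested.

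Each sample was total RNA of a single-cell suspension of fetal liver, labelled with biotin and read on an Affymetrix whole-transcript array. The labels give neither strain, litter nor transgene promoter, and do not tell whether several embryos were pooled. Nothing in them says that samples of a stage came from separate litters, so the p-values measure only the spread between these samples. All E12.5 samples differ from all E14.5 samples in stage together with anything else handled by stage, such as dissection and dissociation, and these cannot be told apart.

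At midgestation the liver is colonised by blood stem cells and fills with erythroblasts that mature around macrophages. The first red cells of the embryo, made in the yolk sac, carry embryonic globins, and the liver's own red cells carry adult globins. Hepatoblasts, the bipotent precursors of hepatocytes and bile duct cells, start to secrete plasma proteins and later gain the enzymes of urea, bile acid and drug metabolism. Sinusoidal endothelium, stellate cells and resident macrophages take shape in the same days.

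Signals are given on the log2 scale as deposited, and in the order WT labelled female, WT labelled male, ERG Tg labelled female and ERG Tg labelled male. Changes are E14.5 minus E12.5 on the log2 scale with their standard error (SE) and a p-value from limma adjusted over all 15195 genes, and a change passed at an adjusted p under 0.05. The 8 arrays had medians from 4.79 to 4.86, and precision is limited by the small number of arrays, with a median residual SD of 0.164. In a principal component analysis the first component, with 58.6% of the variance, put all 4 E12.5 arrays on one side and all 4 E14.5 arrays on the other. The labelled tissue had its defining markers on all 8 arrays, with albumin, Alb, at 11.39 or higher and alpha-fetoprotein, Afp, at 10.93 or higher. The second component, with 15.9%, set the female-labelled WT array of E14.5 apart from the other 3 of its stage.

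Sex markers went against the label or were mixed on 3 arrays. Xist, the RNA of the inactive X chromosome, read 10.65, 9.35, 10.83 and 5.73 at E12.5 against 11.52, 3.94, 10.65 and 10.03 at E14.5. The Y-linked gene Eif2s3y read 3.57, 5.15, 3.20 and 5.41 at E12.5 against 2.75, 6.77, 2.75 and 6.02 at E14.5. The E12.5 WT and E14.5 ERG Tg arrays labelled male had Xist close to the level of the female-labelled arrays together with Y-linked signal, and the male-labelled ERG Tg array of E12.5 had an intermediate Xist level. Without these 3 arrays 5 remained, with 2 residual degrees of freedom, and limma called 23 genes in place of 4149. All 4149 kept their direction without the 3 arrays, but the 5 that remained had also given the calls, so this is no independent check. The change without the 3 arrays is printed below beside leading genes. Of the members of the gene lists described below, those called in this smaller fit were 2 macrophage genes, 1 stellate gene, 1 embryonic globin and 1 immediate early gene.

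Of the 15195 genes tested, 2662 (17.5%) were higher at E14.5 and 1487 (9.79%) were lower by limma at an adjusted p under 0.05. Past a 2-fold change, 447 genes (2.94%) were higher and 108 (0.711%) lower. Of the called genes, 2590 were higher and 1463 lower at E14.5 in all 4 pairs of arrays of the same genotype and labelled sex. The same arrays gave the calls, so this agreement is a description and no separate check. The median change of all tested genes was -0.0025. The call rested on single arrays for many genes: 2199 of the 4149 calls held when each of the 8 arrays was left out in turn, and the number of calls fell to 2454 without the female-labelled ERG Tg array of E14.5, 2595 without the male-labelled ERG Tg array of E14.5 and 2750 without the male-labelled ERG Tg array of E12.5. Higher genes made up 64.2% of the calls as deposited and 49.0% after a further quantile normalization, so the balance of higher over lower genes depends on that scaling. In what follows "rose" and "fell" are used of genes past the threshold, and a list's counts should be read against the 17.5% higher and 9.79% lower among all genes. Statements that stages did not overlap describe the genes named, many of them picked for large changes on these same arrays. How many of all tested genes had no overlap was not counted.

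**Figure D1:**
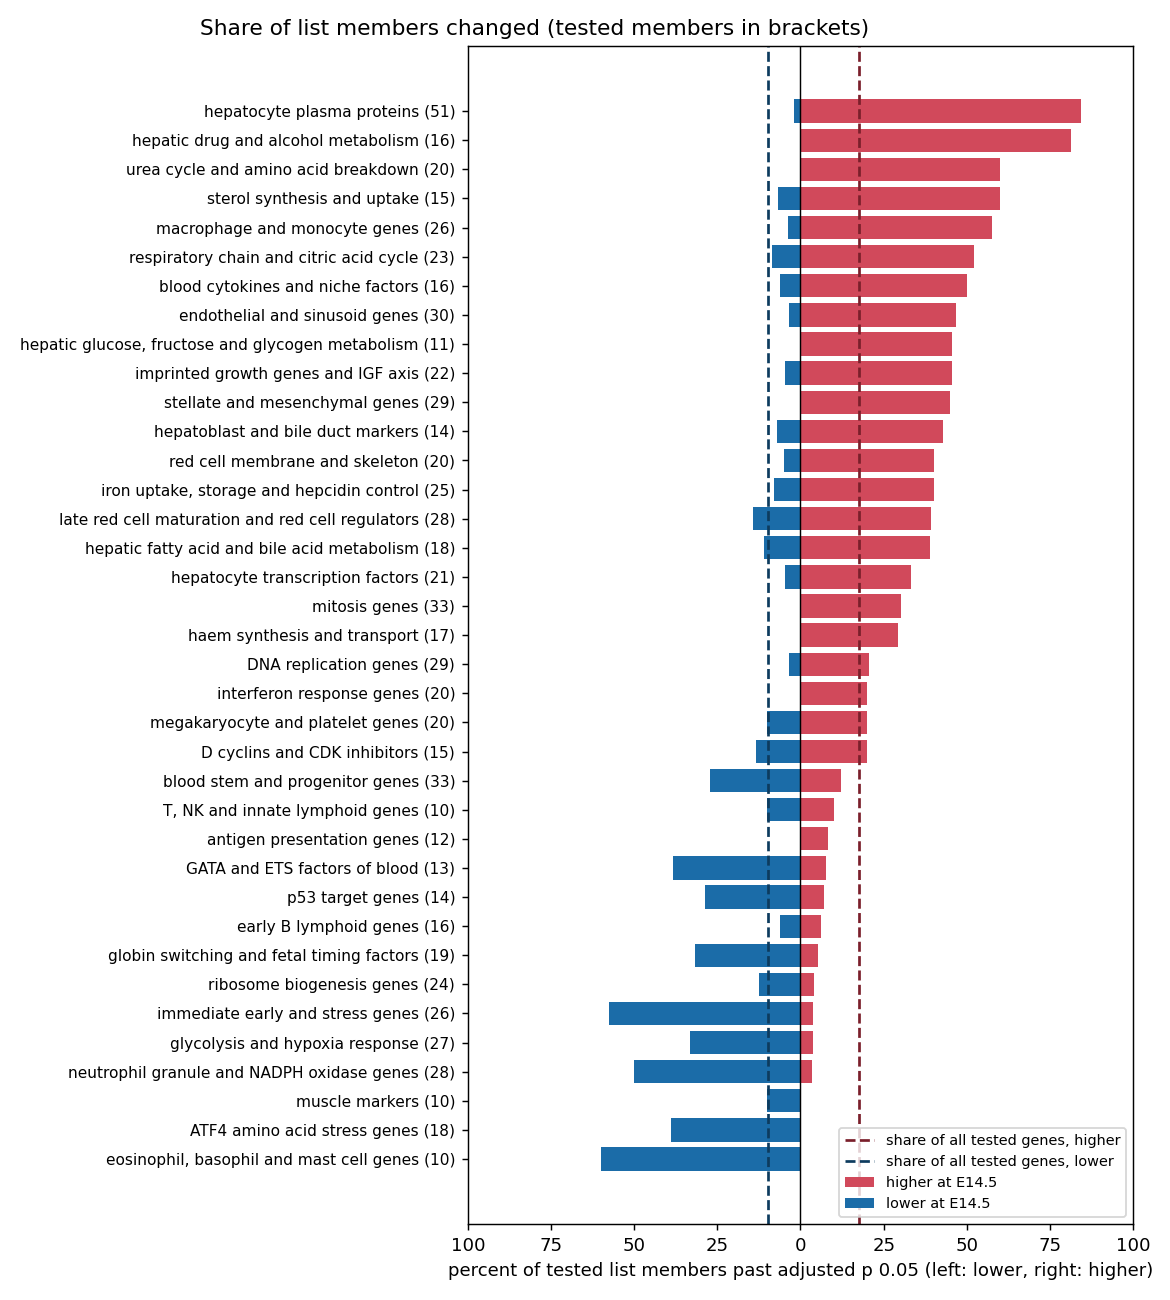
Percent of tested members of each gene list (rows; only lists with 10 or more tested members, number in brackets) that were higher (right, red) or lower (left, blue) at E14.5 at an adjusted p under 0.05. Dashed lines mark the 17.5% higher and 9.79% lower among all 15195 genes; 43 of 51 hepatocyte plasma protein genes were higher, and 6 of 10 eosinophil, basophil and mast cell genes were lower.

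The embryonic globins fell. Of the embryonic globin genes measured by a probe set of their own, all 3 fell: Hbb-bh1 and Hbb-y of the beta-like cluster and Hba-x, the zeta-like globin. The promoters of Hba-x and Hbb-y are printed because these genes fell together, as windows of 300 bases that span each gene's start, from RefSeq on GRCm38.p6. The table used had no entry for Hbb-bh1. Capitals mark 3 motifs on either strand: CACCC, which KLF1 binds; GATAA, which GATA factors bind; and the CCAAT box.
Hba-x, chr11:32276350-32276649, + strand: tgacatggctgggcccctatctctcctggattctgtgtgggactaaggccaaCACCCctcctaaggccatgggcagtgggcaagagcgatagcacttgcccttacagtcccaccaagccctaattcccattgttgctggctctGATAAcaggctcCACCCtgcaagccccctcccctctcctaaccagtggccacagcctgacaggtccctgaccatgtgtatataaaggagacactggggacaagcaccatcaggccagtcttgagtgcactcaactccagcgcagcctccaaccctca
Hbb-y, chr7:103853158-103853457, - strand: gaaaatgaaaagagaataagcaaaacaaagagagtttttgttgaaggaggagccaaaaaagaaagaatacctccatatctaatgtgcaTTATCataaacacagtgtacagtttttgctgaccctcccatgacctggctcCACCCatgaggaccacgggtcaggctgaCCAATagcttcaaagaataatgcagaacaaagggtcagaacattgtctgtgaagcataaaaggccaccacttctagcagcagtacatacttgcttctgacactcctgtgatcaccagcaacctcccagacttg
Both windows held CACCC and GATAA, Hba-x with 2 CACCC matches and Hbb-y with 1, and Hbb-y alone held CCAAT. Over 27025 promoters of the same length, 1 for each symbol, 56.7% held CACCC, 25.8% GATAA and 37.9% CCAAT, so these letters are common and a match is a description only.

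Hbb-bh1 signal was 11.59, 11.84, 11.74 and 12.19 at E12.5 against 9.53, 8.95, 8.07 and 8.05 at E14.5. All 4 E14.5 arrays lay below all 4 E12.5 arrays, and the ERG Tg arrays were the lowest at E14.5. The fall was 3.19 ± 0.28 (SE; 9.13-fold, adjusted p = 0.000351, lower in 4 of 4 pairs), and the change was -2.92 without the 3 arrays of mixed sex markers. Hba-x signal was 12.13, 12.32, 12.08 and 12.54 at E12.5 against 9.58, 9.48, 10.18 and 9.87 at E14.5, again with no overlap between stages. Hba-x fell by 2.49 ± 0.14 (5.62-fold, adjusted p = 3.53e-05), with -2.30 without the 3 arrays. Hbb-y, the embryonic epsilon-like gene, read 12.45, 12.49, 12.52 and 12.66 at E12.5 against 11.85, 11.42, 11.74 and 11.79 at E14.5 and fell by 0.83 ± 0.11 (1.78-fold, adjusted p = 0.00132). Its stages did not overlap either, and its change was the smallest of the 3. The adult alpha and beta globins share probe sets with one another and so have no value of their own here. In this bulk RNA, fewer cells of a type and less RNA per cell cannot be told apart, for these genes and for those below.

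Genes that time or regulate the globin switch changed in a mixed way: of 19 tested, 6 fell and 1 rose, with a list median of -0.12 (-0.24 after a further quantile normalization). Hmga2, a chromatin protein of fetal stem and progenitor cells, read 8.33, 8.41, 8.27 and 8.43 at E12.5 against 7.28, 7.62, 7.30 and 7.21 at E14.5 and fell by 1.01 ± 0.10 (adjusted p = 0.000555). Arid3a, a DNA-binding protein needed in fetal liver blood formation, read 7.43, 7.44, 7.34 and 7.62 at E12.5 against 6.43, 6.60, 6.58 and 6.47 at E14.5 and fell by 0.94 ± 0.09 (adjusted p = 0.000555). Both genes were lower on every E14.5 array than on every E12.5 array. Igf2bp1, a fetal RNA-binding protein, fell by 0.74 ± 0.14 (adjusted p = 0.00576), and Myb, the factor of proliferating progenitors, fell by 0.57 ± 0.13 (adjusted p = 0.0144), a call lost without the female-labelled ERG Tg array of E14.5 (adjusted p = 0.0531). The other 3 calls, Ldb1 and Hic2 lower and Nfia higher, were changes of -0.43, -0.47 and 0.46; they are named after their values were seen. Neither Bcl11a, the repressor of embryonic globins, nor Klf1, its activator in red cells, nor Lin28b, the fetal-timing RNA-binding protein, passed, with changes of -0.10, 0.29 and 0.34 (adjusted p = 0.403, 0.0715 and 0.249; also named after their values were seen).

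**Figure D2:**
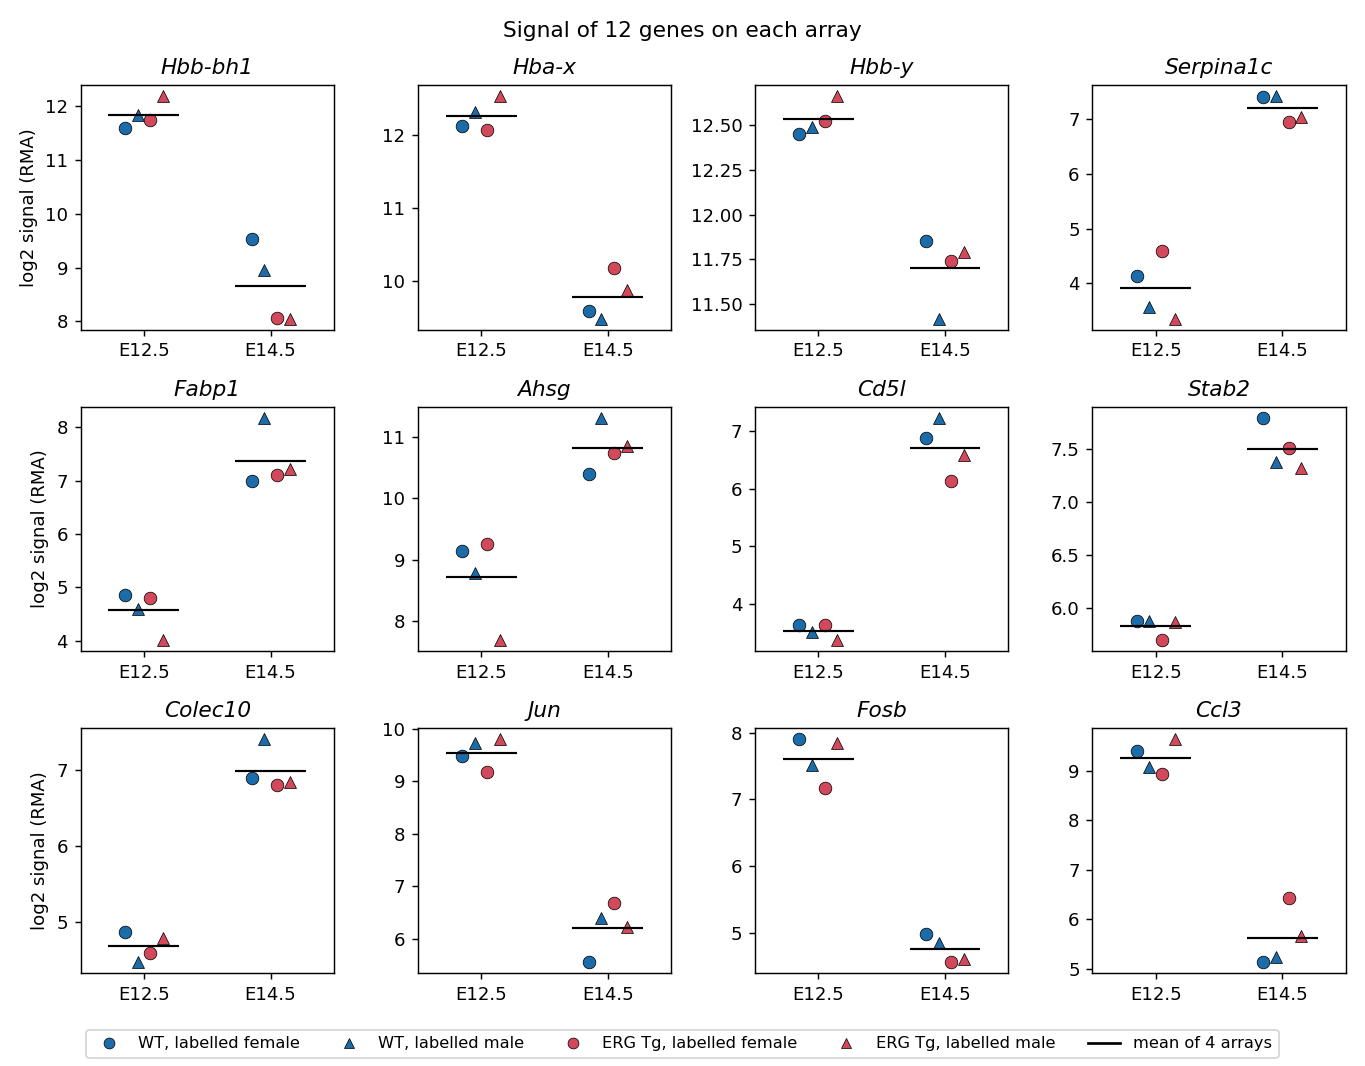
Log2 signal (y axis) of 12 genes on the 4 E12.5 and 4 E14.5 arrays (x axis), blue for WT and red for ERG Tg, circles for arrays labelled female and triangles for arrays labelled male; the line is the mean of 4 arrays. In all 12 genes the stages do not overlap: the 3 embryonic globins, Jun, Fosb and Ccl3 are lower at E14.5, and Serpina1c, Fabp1, Ahsg, Cd5l, Stab2 and Colec10 are higher. Most of the 12 were picked for large changes on these same arrays, and the share of all tested genes without overlap was not counted.

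Red cell lists had smaller median changes than the hepatocyte plasma proteins described below. Of 20 genes of the red cell membrane and its skeleton 8 rose and 1 fell (median 0.34), and of 28 genes of late red cell maturation and red cell regulation 11 rose and 4 fell (median 0.22). Without the male-labelled ERG Tg array of E12.5 these medians were 0.22 and 0.13. Xpo7, a nuclear export receptor of maturing erythroblasts, read 9.25, 8.71, 9.13 and 8.72 at E12.5 against 11.09, 10.62, 9.83 and 10.31 at E14.5 and rose by 1.51 ± 0.21 (adjusted p = 0.00195). Ube2o, the ubiquitin ligase that clears ribosomes from reticulocytes, read 8.36, 8.57, 8.12 and 7.63 at E12.5 against 9.68, 9.10, 8.97 and 8.98 at E14.5 and rose by 1.01 ± 0.15 (adjusted p = 0.00247). Both were higher on every E14.5 array than on any E12.5 array. Tspo2, an erythroid cholesterol-binding membrane protein, rose by 1.70 ± 0.47 (adjusted p = 0.0279), but one array set the size: Tspo2 read 8.86, 8.45, 8.94 and 6.43 at E12.5 against 10.24, 9.60, 10.03 and 9.60 at E14.5. The E12.5 ERG Tg array labelled male was far below the rest of its stage, and the change without the 3 arrays of mixed sex markers, of which it is 1, was 1.07. The Tspo2 call was lost without the male-labelled WT array of E12.5 or either E14.5 ERG Tg array (adjusted p up to 0.0875).

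In the opposite direction, Alox15, a lipoxygenase of reticulocytes that degrades organelle membranes and is also made by eosinophils, fell by 1.04 ± 0.18 (adjusted p = 0.00456), and Car1, the red cell carbonic anhydrase named after its values were seen, fell by 1.0 ± 0.20 (adjusted p = 0.0069). Among membrane genes, the water channel Aqp1 read 7.71, 7.34, 7.52 and 6.80 at E12.5 against 8.41, 8.51, 8.99 and 8.97 at E14.5 and rose by 1.38 ± 0.21 (adjusted p = 0.00268), and Mpp1, a palmitoylated scaffold of the membrane skeleton, read 8.48, 8.47, 8.46 and 7.03 at E12.5 against 9.74, 9.48, 8.88 and 9.08 at E14.5 and rose by 1.19 ± 0.26 (adjusted p = 0.0104; 0.83 without the 3 arrays). Aqp1 and Mpp1 had no overlap between stages, though for Mpp1 the male-labelled ERG Tg array of E12.5 again stood below the others. The efflux pump Abcg2 rose by 0.98 ± 0.21 (adjusted p = 0.00929). Cldn13, an erythroid claudin, rose by 1.05 ± 0.33 (adjusted p = 0.0434), a call that held in 2 of the 8 fits that left out 1 array, without either ERG Tg array of E12.5 (adjusted p up to 0.106 in the others). Band 3, Slc4a1, the anion exchanger that anchors the skeleton, changed by -0.06 (adjusted p = 0.74). The erythropoietin receptor Epor changed by 0.17 (adjusted p = 0.42); both are named after their values were seen. Membrane gene rises numbered 5 without the female-labelled WT array of E14.5, or without either E14.5 ERG Tg array, and late maturation rises 7 without either of the latter. The mean signal of the membrane list was 8.74 on the male-labelled ERG Tg array of E12.5 and 9.48 to 9.52 on the other 3 E12.5 arrays, and 9.61 to 10.04 at E14.5, so the stages did not overlap on that list mean with or without this array.

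Haem synthesis and transport showed 5 rises among 17 genes, and 12 did not pass (median 0.30, and 0.12 without the male-labelled ERG Tg array of E12.5). The 4 largest were in haem breakdown as well as synthesis: Hmox1, haem oxygenase, rose by 0.78 ± 0.20 (adjusted p = 0.0189), the biliverdin reductases Blvra and Blvrb by 0.68 ± 0.15 and 0.43 ± 0.11 (adjusted p = 0.0108 and 0.0172), and Urod, uroporphyrinogen decarboxylase, by 0.46 ± 0.13 (adjusted p = 0.0352). Blvra held its call without any single array. The count of 5 became 3 without the female-labelled WT array of E12.5 or the female-labelled WT array of E14.5, 8 without the female-labelled ERG Tg array of E12.5, 2 without the male-labelled ERG Tg array of E12.5 and 1 without either E14.5 ERG Tg array. The Hmox1 call was lost without the male-labelled ERG Tg array of E12.5 or either E14.5 ERG Tg array, the Blvrb call without either E14.5 ERG Tg array, and the Urod call without E12.5 WT female, E12.5 ERG Tg male, E14.5 WT female, E14.5 ERG Tg female or E14.5 ERG Tg male (arrays named by stage, genotype and labelled sex; adjusted p up to 0.102).

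Of 25 genes of iron uptake, storage and hepcidin control 10 rose and 2 fell. Hpx, the plasma haem scavenger hemopexin, read 7.20, 7.23, 7.25 and 6.49 at E12.5 against 8.34, 9.80, 9.03 and 9.24 at E14.5 and rose by 2.06 ± 0.29 (adjusted p = 0.00199). Cp, ceruloplasmin, the plasma ferroxidase, read 3.71, 4.04, 3.82 and 3.69 at E12.5 against 5.23, 5.68, 6.15 and 5.81 at E14.5 and rose by 1.90 ± 0.17 (adjusted p = 0.000378). At E12.5 Cp lay near 3.74, the limit used to filter dim probe sets, so the size of its rise is less certain. Slc40a1, ferroportin, the iron exporter of macrophages and hepatocytes, rose by 1.59 ± 0.21 (adjusted p = 0.00137). All 3 separated the stages on every array. Hamp, the hormone hepcidin that closes ferroportin, read 3.46, 3.94, 3.31 and 3.31 at E12.5 against 3.53, 4.79, 6.97 and 5.76 at E14.5. Its signal was at the E12.5 level in the female-labelled WT array of E14.5 and highest in the ERG Tg array labelled female, so the stages overlapped; the change of 1.76 ± 0.53 passed (adjusted p = 0.0382) but held in 2 of the 8 fits that left out 1 array, without the male-labelled WT array of E12.5 or the female-labelled WT array of E14.5 (adjusted p up to 0.121 in the others). Tfrc, the transferrin receptor of erythroblasts, named after its values were seen, changed by 0.69 (adjusted p = 0.112), and haptoglobin, Hp, named likewise, fell by 0.78 ± 0.17 (adjusted p = 0.0114).

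Hepatocyte plasma proteins were the list with the largest share of rises. Of 51 tested, 43 rose and 1, Hp, fell, with a list median of 1.20 against -0.0025 for all genes. The mean signal of the list was 7.21, 7.05, 7.29 and 6.75 at E12.5 against 8.02, 8.69, 8.04 and 8.21 at E14.5, with no overlap. The E14.5 WT array labelled female had the lowest mean of its stage and the WT array labelled male the highest. Promoters of Serpina1c and Fabp1, the plasma protease inhibitor and the liver fatty acid-binding protein which are among the 15 largest rises, are printed with GTTAAT, a half-site of the hepatocyte factor HNF1, in capitals (RefSeq, GRCm38.p6).
Serpina1c, chr12:103904901-103905200, - strand: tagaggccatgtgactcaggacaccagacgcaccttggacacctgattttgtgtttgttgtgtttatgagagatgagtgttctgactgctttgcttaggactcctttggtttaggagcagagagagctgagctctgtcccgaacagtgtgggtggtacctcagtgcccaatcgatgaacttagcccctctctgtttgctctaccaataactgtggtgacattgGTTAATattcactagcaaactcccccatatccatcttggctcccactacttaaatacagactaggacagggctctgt
Fabp1, chr6:71199629-71199928, + strand: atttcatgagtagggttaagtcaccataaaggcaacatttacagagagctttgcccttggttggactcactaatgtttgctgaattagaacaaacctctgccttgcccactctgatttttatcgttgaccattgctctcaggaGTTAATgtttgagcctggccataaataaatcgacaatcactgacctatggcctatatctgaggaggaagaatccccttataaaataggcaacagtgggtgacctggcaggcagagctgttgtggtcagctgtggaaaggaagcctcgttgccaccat
Each held 1 match on either strand. Of 40 plasma protein genes with a promoter in the table, 11 (27.5%) held GTTAAT, as did 1946 (7.2%) of all 27025 promoters. This is a count of letters and says nothing of binding.

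Serpina1c signal was 4.14, 3.58, 4.59 and 3.36 at E12.5 against 7.40, 7.41, 6.94 and 7.03 at E14.5, and it rose by 3.28 ± 0.25 (9.7-fold, adjusted p = 0.000162; 2.87 without the 3 arrays). Both male-labelled arrays of E12.5 read below the dim limit of 3.74 (the 30th percentile of all values), so the size of this rise is less certain. Serpina1c has near-identical copies in the mouse, and how far its probe set tells them apart is not known. Apoh, a phospholipid-binding plasma glycoprotein, read 6.61, 6.25, 6.77 and 5.20 at E12.5 against 8.23, 9.52, 8.68 and 8.91 at E14.5 and rose by 2.63 ± 0.36 (6.18-fold, adjusted p = 0.00167). The stages were apart on every array for both genes. The complement components C8b and Hc rose by 2.49 ± 0.32 and 2.21 ± 0.26 (adjusted p = 0.00128 and 0.000933), and Apoc1, a lipoprotein component, rose by 2.22 ± 0.33 (adjusted p = 0.00216). Ahsg, the fetal plasma protein fetuin, named after its values were seen, read 9.14, 8.79, 9.26 and 7.69 at E12.5 against 10.40, 11.31, 10.73 and 10.85 at E14.5 and rose by 2.10 ± 0.32 (adjusted p = 0.00262). Kng2, a kininogen among the 15 largest rises, rose by 2.48 ± 0.17 (adjusted p = 0.000104). Among proteins with high signal at E12.5, Afp, alpha-fetoprotein, read 11.13, 10.93, 11.29 and 11.04 at E12.5 against 11.77, 11.93, 11.69 and 11.73 at E14.5 and rose by 0.68 ± 0.11 (adjusted p = 0.00275), and Ttr, transthyretin, rose by 1.31 ± 0.24 (adjusted p = 0.0052). Alb, albumin, read 11.79, 11.39, 11.92 and 11.54 at E12.5 against 12.19, 12.14, 11.98 and 12.07 at E14.5, and its rise of 0.43 ± 0.13 (adjusted p = 0.0352) held only without the E12.5 WT or the female-labelled ERG Tg array of E12.5 (adjusted p up to 0.1 in the other 6 fits). Afp, Ttr and Alb are named after their values were seen.

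**Figure D3:**
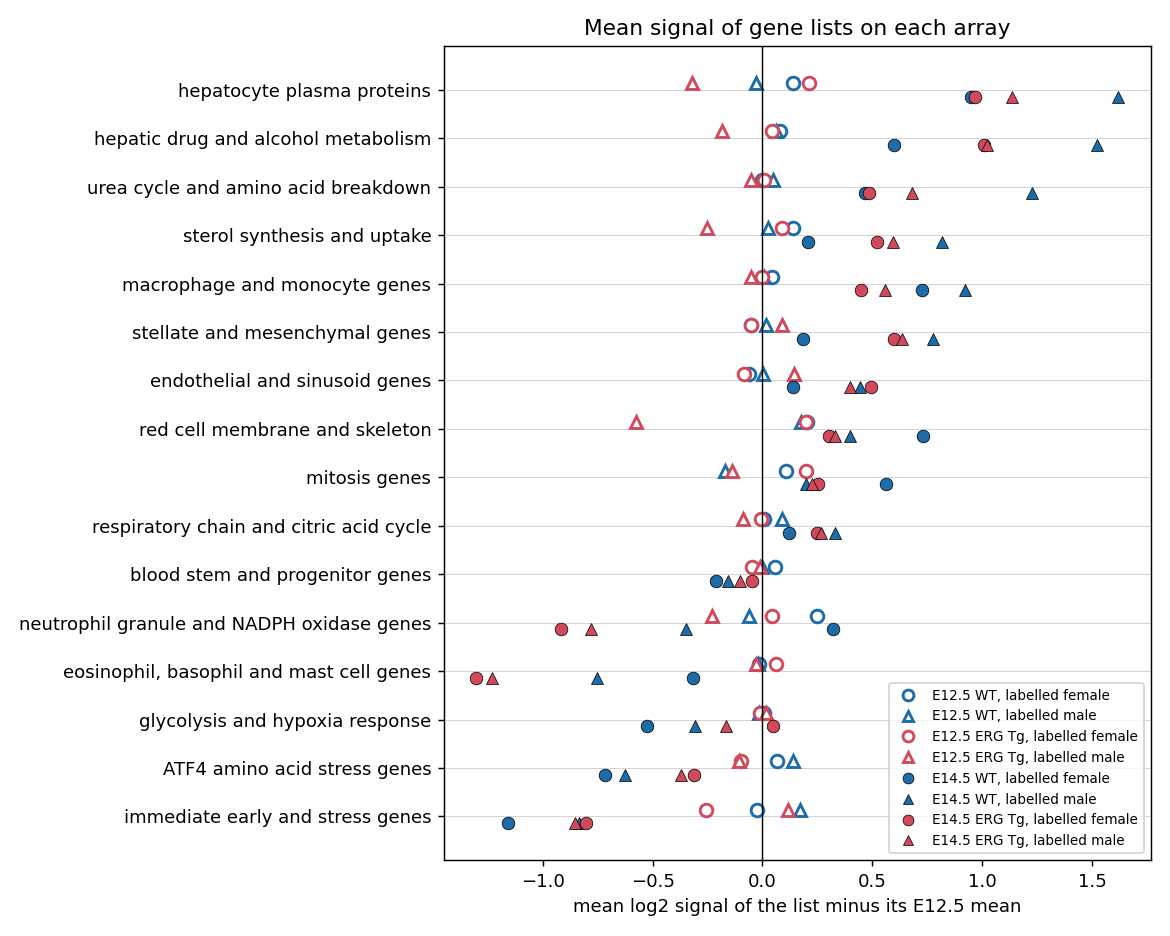
Mean log2 signal of 16 gene lists on each array minus the list's mean over the 4 E12.5 arrays (x axis), open symbols for E12.5 and filled symbols for E14.5, blue for WT and red for ERG Tg, circles for arrays labelled female and triangles for male. The 4 hepatic lists drawn lie to the right at E14.5 and immediate early and stress genes to the left, with the female-labelled WT array of E14.5 lowest of its stage in each of these; the male-labelled ERG Tg array of E12.5 is low in the red cell membrane list.

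Metabolic genes of the hepatocyte rose alongside the plasma proteins. Of 16 genes of drug and alcohol metabolism 13 rose and 3 did not pass (median 0.97). Gsta3, a glutathione transferase, read 4.84, 4.84, 4.48 and 4.50 at E12.5 against 6.40, 8.09, 7.57 and 7.75 at E14.5 and rose by 2.79 ± 0.32 (6.9-fold, adjusted p = 0.000853; 2.70 without the 3 arrays), and Fmo1, a flavin monooxygenase, rose by 1.51 ± 0.25 (adjusted p = 0.00325). Both genes separated the stages on every array. Adh1, alcohol dehydrogenase, read 4.59, 4.28, 4.29 and 4.93 at E12.5 against 4.90, 6.61, 7.33 and 6.40 at E14.5 and rose by 1.79 ± 0.38 (adjusted p = 0.0103), with the female-labelled WT array of E14.5 within the E12.5 range. The cytochrome P450 gene Cyp2d26 rose by 1.55 ± 0.32 (adjusted p = 0.00853). Close relatives exist for the glutathione transferases and cytochromes, and how far the probe sets tell them apart is not known.

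Of 20 genes of the urea cycle and amino acid breakdown 12 rose and 8 did not pass (median 0.59). Otc, ornithine transcarbamylase of the urea cycle, read 4.99, 4.66, 5.10 and 4.55 at E12.5 against 6.11, 7.14, 5.86 and 6.37 at E14.5 and rose by 1.54 ± 0.25 (adjusted p = 0.00294). Mat1a, the adult liver form of methionine adenosyltransferase, read 3.75, 3.87, 3.79 and 3.70 at E12.5 against 4.77, 6.69, 5.18 and 6.0 at E14.5 and rose by 1.88 ± 0.36 (adjusted p = 0.00602). Stages were apart on every array for both, and the male-labelled WT array of E14.5 was the highest. At E12.5 Mat1a lay near the dim limit of 3.74, so the size of its rise is less certain. Hpd, of tyrosine breakdown, rose by 1.41 ± 0.26 (adjusted p = 0.0052) and Aass, of lysine breakdown, by 1.30 ± 0.18 (adjusted p = 0.00164). Cps1, carbamoyl phosphate synthetase, the entry enzyme of the urea cycle, had low signal at both stages: it read 3.72, 3.93, 3.49 and 3.48 at E12.5 against 3.73, 3.81, 3.75 and 3.91 at E14.5, against a dim limit of 3.74 (the 30th percentile of all values), and changed by 0.14 (adjusted p = 0.348). The 12 rises became 6 without the female-labelled WT array of E12.5, the male-labelled ERG Tg array of E12.5 or the male-labelled ERG Tg array of E14.5, and 7 without the male-labelled WT array of E12.5.

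Of 11 genes of hepatic glucose, fructose and glycogen metabolism 5 rose, among them Gys2, liver glycogen synthase, by 1.42 ± 0.22 (adjusted p = 0.00285), the glucose transporter Slc2a2 by 1.15 ± 0.21 (adjusted p = 0.0052), and Pygl, liver glycogen phosphorylase, by 0.85 ± 0.12 (adjusted p = 0.0018). The 5 became 3 without the male-labelled ERG Tg array of E12.5 or either E14.5 ERG Tg array. Of 15 sterol genes 9 rose and 1 fell; Msmo1, a methyl sterol oxidase, rose by 1.49 ± 0.25 (adjusted p = 0.00371), Cyp51, lanosterol demethylase, by 1.02 ± 0.17 (adjusted p = 0.00372), Hmgcs1, HMG-CoA synthase, by 0.98 ± 0.16 (adjusted p = 0.00347), and Sqle, squalene epoxidase, by 0.85 ± 0.11 (adjusted p = 0.00154). The sterol rises numbered 5 without the male-labelled ERG Tg array of E14.5. Of 18 genes of fatty acid and bile acid metabolism 7 rose and 2 fell. Fabp1 read 4.86, 4.60, 4.81 and 4.01 at E12.5 against 6.99, 8.18, 7.10 and 7.22 at E14.5 and rose by 2.80 ± 0.25 (6.98-fold, adjusted p = 0.000388; 2.54 without the 3 arrays), with no overlap between stages. The fatty acid transporter Slc27a2 rose by 2.01 ± 0.21 (adjusted p = 0.000593), and Mttp, which loads lipid onto lipoproteins, by 1.08 ± 0.18 (adjusted p = 0.00385), and Abcb11, the bile salt export pump, below the dim limit on all E12.5 arrays, was at least 1.72-fold higher (adjusted p = 0.00684). Those that fell were Fasn, fatty acid synthase, by 0.61 ± 0.13 (adjusted p = 0.0101), and its regulator Srebf1, by 0.42 ± 0.10 (adjusted p = 0.0141, lost at 0.0527 without the female-labelled ERG Tg array of E14.5); both were named after their values were seen.

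Hepatocyte transcription factors had a smaller median change than the plasma proteins: of 21 tested, 7 rose and 1 fell, with a median of 0.17, which was 0.06 without the male-labelled WT array of E12.5 and 0.05 after a further quantile normalization. Foxa3, a pioneer factor of liver genes, read 5.59, 5.70, 5.66 and 5.81 at E12.5 against 6.36, 7.52, 6.82 and 6.79 at E14.5 and rose by 1.18 ± 0.21 (adjusted p = 0.00492). Ppara, the nuclear receptor of fatty acid oxidation, read 4.66, 4.82, 4.69 and 4.56 at E12.5 against 5.61, 5.97, 5.55 and 5.51 at E14.5 and rose by 0.98 ± 0.10 (adjusted p = 0.000622). The nuclear receptors Nr5a2 and Nr1i2 rose by 0.93 ± 0.14 and 0.75 ± 0.09 (adjusted p = 0.00226 and 0.00123). All 4 separated the stages on every array. Hnf4a, the central hepatocyte factor, named after its values were seen, was higher in 4 of 4 pairs but did not pass (0.53 ± 0.18, adjusted p = 0.0601); Cebpa changed by -0.03 (adjusted p = 0.92) and Cebpb fell by 0.51 ± 0.12 (adjusted p = 0.0151), both named likewise. Of 14 hepatoblast and bile duct markers 6 rose and 1 fell; the rises numbered 10 without the female-labelled WT array of E14.5. Cdh1, E-cadherin, rose by 1.56 ± 0.21 (adjusted p = 0.00159), the hepatoblast proteoglycan Gpc3 by 1.04 ± 0.13 (adjusted p = 0.00123) and Prom1 by 0.62 ± 0.11 (adjusted p = 0.0041). Igfbp1, a secreted IGF-binding protein of hepatocytes, rose by 1.84 ± 0.43 (adjusted p = 0.0142) with overlap between stages (6.91, 6.69, 7.03 and 6.48 at E12.5 against 6.97, 8.54, 9.87 and 9.11 at E14.5), a call lost without the male-labelled ERG Tg array of E12.5 (adjusted p = 0.0514). The bile duct keratin Krt19 and Epcam, both named after their values were seen, changed by 0.32 and 0.56 and did not pass (adjusted p = 0.265 and 0.0975).

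Further genes were among the 15 largest rises, and which cells of the liver sample carried them was not tested. Rgn, regucalcin, below the dim limit on all E12.5 arrays, was at least 6.03-fold higher (adjusted p = 0.000555). Aadac, an arylacetamide deacetylase of the endoplasmic reticulum, rose by 2.75 ± 0.33 (adjusted p = 0.00102), Mgst1, a microsomal glutathione transferase, by 2.56 ± 0.27 (adjusted p = 0.000618), and Spink1, a trypsin inhibitor, by 2.55 ± 0.22 (adjusted p = 0.000353). Bex1 and AI182371 rose by 2.56 ± 0.21 and 2.35 ± 0.22 (adjusted p = 0.000239 and 0.000439). Cd36, the scavenger receptor and fatty acid transporter found on erythroid progenitors, macrophages and endothelium, read 3.97, 3.96, 4.38 and 3.82 at E12.5 against 7.36, 6.21, 6.04 and 5.93 at E14.5 and rose by 2.35 ± 0.27 (adjusted p = 0.000917). Cd36 was highest in the female-labelled WT array of E14.5.

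Resident macrophage genes rose. Of 26 macrophage and monocyte genes 15 rose and 1 fell (median 0.47, and 0.78 under a stricter filter), against 17.5% and 9.79% of all genes. Cd5l, a secreted scavenger protein of tissue macrophages, read 3.62, 3.51, 3.63 and 3.36 at E12.5 against 6.89, 7.24, 6.14 and 6.59 at E14.5 and was higher at E14.5 (adjusted p = 2.43e-05). The E12.5 arrays were all under the dim limit, so the rise is given as at least 7.86-fold, the E14.5 mean over that limit. Spic, the transcription factor of iron-recycling macrophages, read 3.92, 4.13, 3.85 and 3.78 at E12.5 against 5.51, 5.74, 5.42 and 5.39 at E14.5 and rose by 1.59 ± 0.09 (adjusted p = 3.72e-05; 1.65 without the 3 arrays). Adgre1, the F4/80 antigen, read 5.38, 5.04, 5.43 and 5.34 at E12.5 against 7.32, 7.29, 6.63 and 6.90 at E14.5 and rose by 1.74 ± 0.16 (adjusted p = 0.000398). Neither gene overlapped between stages. Vcam1, the adhesion molecule of island macrophages and of stroma, rose by 1.50 ± 0.21 (adjusted p = 0.00176). Further genes, named after their values were seen, were the engulfment receptors Mertk, which rose by 1.29 ± 0.16 (adjusted p = 0.00102), and Timd4, by 0.96 ± 0.15 (adjusted p = 0.00258), and the complement gene C1qa, by 0.84 ± 0.11 (adjusted p = 0.00125). Not every macrophage gene moved: Csf1r, the receptor for the macrophage growth factor, changed by 0.22 (adjusted p = 0.258), C1qb by 0.30 (adjusted p = 0.173), and Cx3cr1, a receptor of monocytes and early macrophages, fell by 0.53 ± 0.12 (adjusted p = 0.0126); these too were named after their values were seen.

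Sinusoid and stromal genes rose as well. Of 30 endothelial and sinusoid genes 14 rose and 1 fell (median 0.40). Stab2, the hyaluronan scavenger receptor of liver sinusoids, read 5.87, 5.87, 5.69 and 5.86 at E12.5 against 7.80, 7.38, 7.51 and 7.32 at E14.5 and rose by 1.68 ± 0.11 (adjusted p = 9.07e-05). Lyve1, another hyaluronan receptor of sinusoids, read 7.25, 6.79, 7.22 and 6.99 at E12.5 against 8.17, 8.67, 8.74 and 8.69 at E14.5 and rose by 1.50 ± 0.15 (adjusted p = 0.00047). The VEGF receptor Kdr rose by 1.0 ± 0.11 (adjusted p = 0.000618). For these genes every E14.5 array exceeded every E12.5 array. Fcgr2b, an inhibitory Fc receptor of sinusoids, B cells and myeloid cells, fell by 0.98 ± 0.17 (adjusted p = 0.00427), and Pecam1, a general endothelial marker named after its values were seen, changed by -0.14 (adjusted p = 0.402). The 14 rises became 9 without the female-labelled ERG Tg array of E12.5 or the female-labelled ERG Tg array of E14.5.

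Of 29 stellate and mesenchymal genes 13 rose and 16 did not pass (median 0.41, and 0.63 without the female-labelled WT array of E14.5). Colec10, a collectin of stellate cells, read 4.87, 4.48, 4.60 and 4.79 at E12.5 against 6.90, 7.41, 6.81 and 6.85 at E14.5 and rose by 2.31 ± 0.15 (4.95-fold, adjusted p = 7.15e-05; 2.25 without the 3 arrays). The matrix proteoglycan Dcn read 6.62, 5.99, 6.83 and 6.94 at E12.5 against 7.82, 9.06, 8.44 and 8.63 at E14.5 and rose by 1.89 ± 0.26 (adjusted p = 0.00168), with Lum, a related proteoglycan, rising by 1.75 ± 0.23 (adjusted p = 0.0015) and Postn, periostin, by 1.18 ± 0.19 (adjusted p = 0.00298). All 4 separated the stages. Pdgfra rose by 0.57 ± 0.14 (adjusted p = 0.0176, lost without the male-labelled WT array of E12.5 or the female-labelled ERG Tg array of E14.5, up to 0.0629), while Des, desmin, and Col1a1 changed by -0.23 and 0.09 (adjusted p = 0.458 and 0.537); these 3 were named after their values were seen. Of 16 blood cytokines and niche factors 8 rose and 1 fell: Cxcl12, the chemokine that holds blood stem cells, read 5.39, 5.15, 5.12 and 5.07 at E12.5 against 6.33, 7.04, 6.29 and 6.54 at E14.5 and rose by 1.37 ± 0.15 (adjusted p = 0.000762), Igf1 rose by 1.05 ± 0.16 (adjusted p = 0.00229), Csf1, the macrophage growth factor, by 0.71 ± 0.12 (adjusted p = 0.00335), and Agt, angiotensinogen, by 1.56 ± 0.32 (adjusted p = 0.00803). Of 9 mesothelial genes Podxl, a surface sialomucin that blood progenitors and endothelium also carry, fell by 0.96 ± 0.16 (adjusted p = 0.00312), and Gpm6a rose by 0.61 ± 0.16 (adjusted p = 0.024). The Gpm6a call held only without the female-labelled WT array of E12.5 or the female-labelled WT array of E14.5 (adjusted p up to 0.0733 in the other 6 fits).

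Granulocyte genes fell. Of 28 neutrophil granule and NADPH oxidase genes 14 fell and 1 rose (median -0.58). The list median was -0.265 in WT and -0.9125 in ERG Tg, a difference that was not tested for the list. Mpo, myeloperoxidase, read 10.31, 10.21, 10.41 and 10.28 at E12.5 against 9.69, 9.43, 8.19 and 8.39 at E14.5 and fell by 1.38 ± 0.24 (adjusted p = 0.00469). The fall was larger in the ERG Tg arrays, -2.06, than in WT, -0.70; the difference did not pass (adjusted p = 0.185). Ngp, a granule protein of maturing neutrophils, read 10.15, 9.73, 9.76 and 9.09 at E12.5 against 9.59, 7.96, 7.62 and 7.58 at E14.5 and fell by 1.50 ± 0.33 (adjusted p = 0.0112), with the female-labelled WT array of E14.5 inside the E12.5 range. Lcn2 fell by 1.06 ± 0.26 (adjusted p = 0.0168), a call lost without either E14.5 ERG Tg array (adjusted p up to 0.0533). Olfm4, a glycoprotein of neutrophil granules, read 9.01, 8.25, 8.82 and 8.92 at E12.5 against 7.80, 6.58, 6.18 and 6.40 at E14.5 and fell by 2.01 ± 0.32 (adjusted p = 0.00285). The count of neutrophil falls was 8 without either E14.5 ERG Tg array. The calprotectin gene S100a8 and the protease Elane, both named after their values were seen, changed by -0.71 and -0.56 and did not pass (adjusted p = 0.134 and 0.0832). The list mean was 6.83, 6.52, 6.63 and 6.36 at E12.5 against 6.90, 6.24, 5.67 and 5.80 at E14.5: the female-labelled WT array of E14.5 lay above all E12.5 arrays. Ctsg, cathepsin G of promyelocytes and mast cells, went the other way, reading 5.68, 4.91, 5.56 and 4.92 at E12.5 against 7.88, 7.50, 6.10 and 6.27 at E14.5 and rising by 1.67 ± 0.31 (adjusted p = 0.00561).

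Of 10 eosinophil, basophil and mast cell genes 6 fell and 4 did not pass (median -0.91). The list median was -0.395 in WT and -1.525 in ERG Tg, again not tested for the list. Epx, eosinophil peroxidase, read 7.40, 7.66, 7.60 and 7.23 at E12.5 against 6.22, 5.86, 4.70 and 4.53 at E14.5 and fell by 2.15 ± 0.25 (4.42-fold, adjusted p = 0.000933; -2.02 without the 3 arrays). Prg3, an eosinophil granule protein, fell by 1.37 ± 0.17 (adjusted p = 0.00111), and Hdc, the histamine-forming enzyme, by 1.14 ± 0.20 (adjusted p = 0.0044). The stages did not overlap for these 3 genes, and the ERG Tg arrays were the lowest at E14.5. Ear6, an eosinophil ribonuclease with close relatives, read 8.59, 8.54, 8.92 and 8.44 at E12.5 against 8.60, 7.05, 6.33 and 5.92 at E14.5 and fell by 1.65 ± 0.42 (adjusted p = 0.0195), with overlap and a call lost without E12.5 ERG Tg male, E14.5 ERG Tg female or E14.5 ERG Tg male (adjusted p up to 0.0671).

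Stem and progenitor genes fell more often than they rose, 9 against 4 of 33. Cd34, a sialomucin of progenitors and endothelium, read 8.28, 8.33, 8.19 and 7.99 at E12.5 against 7.61, 7.40, 6.95 and 6.90 at E14.5 and fell by 0.98 ± 0.11 (adjusted p = 0.00073). Runx1, the master factor of definitive blood formation, read 8.91, 8.61, 8.62 and 8.87 at E12.5 against 7.69, 7.48, 8.33 and 8.11 at E14.5 and fell by 0.85 ± 0.16 (adjusted p = 0.00526). Etv6, an ETS repressor that maintains blood stem cells, fell by 0.78 ± 0.12 (adjusted p = 0.00227), and Kit, the receptor for stem cell factor, named after its values were seen, fell by 0.72 ± 0.15 (adjusted p = 0.01). No E14.5 array reached the E12.5 range for these genes. Tek, the angiopoietin receptor shared by stem cells and endothelium, rose by 0.92 ± 0.15 (adjusted p = 0.00317), and Hlf, a factor of long-term stem cells, also named after its values were seen, changed by 0.18 (adjusted p = 0.269). The 4 rises became 2 without the male-labelled ERG Tg array of E12.5 or either E14.5 ERG Tg array. Cd34 and Tek are endothelial genes too, and 14 of 30 endothelial genes rose as given above; their part in the stem list was not tested.

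Of 13 GATA and ETS factors of blood 5 fell and 1 rose. Spi1, the PU.1 factor of myeloid cells, read 8.12, 7.96, 7.88 and 7.83 at E12.5 against 7.26, 7.23, 6.56 and 6.86 at E14.5 and fell by 0.97 ± 0.11 (adjusted p = 0.000853). Gata1 read 9.76, 10.02, 9.69 and 9.36 at E12.5 against 9.22, 9.22, 9.22 and 9.29 at E14.5 and fell by 0.47 ± 0.12 (adjusted p = 0.0222), a call lost without E12.5 WT male, E12.5 ERG Tg female, E14.5 WT male or E14.5 ERG Tg female (adjusted p up to 0.0542). Zfpm1, the FOG1 partner of GATA1, fell by 0.47 ± 0.14 (adjusted p = 0.0362) and Lmo2, a bridging factor of the same complex, rose by 0.40 ± 0.13 (adjusted p = 0.045); both are named after their values were seen. The Zfpm1 call was lost without E12.5 WT female, E12.5 WT male, E12.5 ERG Tg female, E14.5 WT female, E14.5 ERG Tg female or E14.5 ERG Tg male (adjusted p up to 0.0869). The Lmo2 call was lost without E12.5 WT male, E12.5 ERG Tg female, E12.5 ERG Tg male, E14.5 ERG Tg female or E14.5 ERG Tg male (adjusted p up to 0.136). The 5 falls became 3 without the female-labelled ERG Tg array of E12.5 or the female-labelled ERG Tg array of E14.5. Erg read 5.51, 5.35, 5.58 and 5.63 at E12.5 against 5.41, 5.53, 5.88 and 5.58 at E14.5 and changed by 0.08 (adjusted p = 0.549); whether the mouse probe set reads the transgene is not known. Gata2, the stem and progenitor GATA factor, read 7.70, 7.32, 6.96 and 7.48 at E12.5 against 6.05, 6.31, 8.79 and 8.30 at E14.5. Its 2 genotypes moved in opposite directions, -1.33 in WT and 1.32 in ERG Tg, so the blocked mean change was near 0; the difference between genotypes did not pass (adjusted p = 0.111).

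Megakaryocyte and platelet genes showed 4 rises and 2 falls among 20. Ppbp, the platelet basic protein, read 9.86, 9.61, 9.67 and 9.51 at E12.5 against 11.13, 11.30, 9.96 and 10.39 at E14.5 and rose by 1.03 ± 0.19 (adjusted p = 0.00543), and the thrombin receptor F2rl2 and the granule trafficking gene Nbeal2 fell by 0.70 ± 0.17 and 0.67 ± 0.11 (adjusted p = 0.0158 and 0.00313). Gp5, a subunit of the platelet von Willebrand factor receptor, read 6.37, 5.73, 5.91 and 6.12 at E12.5 against 6.31, 6.27, 7.76 and 7.51 at E14.5; its rise of 0.93 ± 0.27 (adjusted p = 0.0328) was made up of changes of 0.24 in WT and 1.62 in ERG Tg, and the call was lost without E12.5 WT male, E12.5 ERG Tg female, E12.5 ERG Tg male, E14.5 ERG Tg female or E14.5 ERG Tg male (adjusted p up to 0.103). Platelet factor 4, Pf4, and Itga2b, the integrin CD41, both named after their values were seen, changed by -0.17 and -0.37 (adjusted p = 0.584 and 0.202). The 4 rises became 2 without the male-labelled WT array of E12.5 or either E12.5 ERG Tg array, and 1 without either E14.5 ERG Tg array; the 2 falls became 8 without the male-labelled WT array of E12.5 and 4 without the female-labelled WT array of E14.5. A further quantile normalization gave 3 rises and 5 falls, so the list had no settled direction. Nfe2, a factor shared by red cells and megakaryocytes and named after its values were seen, read 8.28, 8.15, 8.29 and 7.74 at E12.5 against 8.89, 8.72, 9.34 and 9.25 at E14.5 and rose by 0.94 ± 0.17 (adjusted p = 0.00506).

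Lymphoid genes were near the background. Of 16 early B lymphoid genes Igll1, the surrogate light chain of pre-B cells, rose by 0.80 ± 0.19 (adjusted p = 0.0164; 4.65, 4.91, 4.64 and 5.03 at E12.5 against 6.07, 5.99, 5.02 and 5.34 at E14.5), with the female-labelled ERG Tg array of E14.5 inside the E12.5 range, and Lef1 fell by 0.47 ± 0.11 (adjusted p = 0.0157, lost at 0.0558 without the female-labelled ERG Tg array of E14.5). Of 10 genes of T, NK and innate lymphoid cells Zbtb16, the PLZF factor, fell by 0.93 ± 0.15 (adjusted p = 0.00342) and Id2 rose by 0.64 ± 0.17 (adjusted p = 0.0226), a call lost without E12.5 ERG Tg male, E14.5 ERG Tg female or E14.5 ERG Tg male (adjusted p up to 0.0743).

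Mitosis genes showed small rises: 10 of 33 rose and 23 did not pass, with a median of 0.32. The median was 0.18 without the female-labelled WT array of E14.5, 0.20 without the male-labelled WT array of E12.5 and 0.13 with array weights. Birc5, survivin, rose by 0.66 ± 0.11 (adjusted p = 0.0033), Cdk1 by 0.56 ± 0.11 (adjusted p = 0.00672), the condensin subunit Ncapg by 0.64 ± 0.16 (adjusted p = 0.0204, lost without the E12.5 WT or ERG Tg array labelled male, up to 0.0587) and the spindle checkpoint kinase Ttk by 0.65 ± 0.20 (adjusted p = 0.0432, kept only without the E12.5 WT or ERG Tg array labelled female, up to 0.0914 in the other 6 fits). The 10 became 6 without the male-labelled WT array of E12.5 or the male-labelled ERG Tg array of E14.5, 5 without the male-labelled ERG Tg array of E12.5 and 4 without the female-labelled ERG Tg array of E14.5. The mean of the mitosis list was 9.23 on the female-labelled WT array of E14.5 and 8.87 to 8.92 on the other E14.5 arrays. DNA replication genes lay near the background, with 6 of 29 higher and 1 lower: Fen1 rose by 0.63 ± 0.11, Prim1 by 0.51 ± 0.12 and Rrm2 by 0.50 ± 0.13 (adjusted p = 0.0041, 0.0144 and 0.0191; the last lost at 0.0584 without the male-labelled ERG Tg array of E14.5), and E2f1 fell by 0.52 ± 0.11 (adjusted p = 0.00998). Falls of replication genes numbered 3 without the male-labelled ERG Tg array of E12.5. After a further quantile normalization 5 replication genes rose and 7 fell, and 6 mitosis genes rose. Mki67 and Pcna, general proliferation genes named after their values were seen, changed by 0.26 and 0.20 and did not pass (adjusted p = 0.259 and 0.126).

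Of 15 D cyclins, kinase inhibitors and related genes 3 rose and 2 fell, close to the shares among all genes. The 3 that rose inhibit cyclin-dependent kinases. Cdkn2c, p18, which acts as erythroblasts leave the cell cycle, read 6.13, 6.09, 6.10 and 5.69 at E12.5 against 7.52, 7.0, 7.04 and 7.15 at E14.5 and rose by 1.18 ± 0.13 (adjusted p = 0.000868). Cdkn2d, p19, read 6.53, 6.51, 6.35 and 6.31 at E12.5 against 7.35, 7.24, 7.16 and 7.14 at E14.5 and rose by 0.80 ± 0.08 (adjusted p = 0.000504), and Cdkn1b, p27, rose by 0.82 ± 0.14 (adjusted p = 0.00364). The 3 had no overlap between stages. The inhibitors Cdkn1c, Cdkn2a and Cdkn2b, named after their values were seen, changed by 0.01, -0.10 and -0.22 and did not pass (adjusted p = 0.98, 0.448 and 0.122). Btg1, an antiproliferative gene in that list, fell by 0.77 ± 0.16 (adjusted p = 0.00827).

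Calls among energy metabolism genes went in opposite directions. Of 27 genes of glycolysis and the hypoxia response 9 fell and 1 rose, and of 23 genes of the respiratory chain and citric acid cycle 12 rose and 2 fell. The glycolysis list had a median change of -0.36 in WT and -0.075 in ERG Tg. Its mean signal was 7.92, 7.896, 7.901 and 7.928 at E12.5 against 7.388, 7.603, 7.957 and 7.745 at E14.5. The female-labelled ERG Tg array of E14.5 thus lay above all E12.5 arrays on this list mean. Pkm, pyruvate kinase of muscle and proliferating cells, read 9.03, 9.37, 8.98 and 9.40 at E12.5 against 7.69, 7.73, 8.24 and 7.89 at E14.5 and fell by 1.31 ± 0.14 (adjusted p = 0.00073). Aldoa, aldolase A, read 11.13, 11.21, 11.10 and 11.24 at E12.5 against 9.81, 10.19, 10.54 and 10.27 at E14.5 and fell by 0.97 ± 0.13 (adjusted p = 0.00161). Pgam1, phosphoglycerate mutase, fell by 0.93 ± 0.16 (adjusted p = 0.00449), and Bnip3, a hypoxia-induced mitophagy receptor, by 1.05 ± 0.24 (adjusted p = 0.0134). The stages did not overlap for any of the 4, and the ERG Tg array labelled female was the nearest to E12.5 for Pkm, Aldoa and Bnip3. Rises in the glycolysis list numbered 4 without the female-labelled WT array of E14.5. On the respiratory side, Sdha of succinate dehydrogenase rose by 0.60 ± 0.09 (adjusted p = 0.00195), Cox4i1 of cytochrome oxidase by 0.62 ± 0.10 (adjusted p = 0.0033), Fh1, fumarase, by 0.73 ± 0.17 (adjusted p = 0.0129), and Ndufa9 of complex I by 0.66 ± 0.18 (adjusted p = 0.0251, lost without E12.5 ERG Tg male, E14.5 WT male, E14.5 ERG Tg female or E14.5 ERG Tg male, up to 0.0783).

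Imprinted growth genes and the IGF axis had 10 rises and 1 fall among 22. Sgce read 5.79, 5.49, 5.68 and 5.43 at E12.5 against 6.66, 7.27, 6.85 and 6.93 at E14.5 and rose by 1.33 ± 0.14 (adjusted p = 0.000618). Phlda2, a growth-limiting gene of the Kcnq1 region, rose by 1.37 ± 0.35 (adjusted p = 0.0208, lost without E12.5 ERG Tg male, E14.5 ERG Tg female or E14.5 ERG Tg male, up to 0.0726). Rian, a maternally expressed noncoding RNA of the Dlk1-Dio3 imprinted region, read 5.38, 5.0, 5.22 and 4.58 at E12.5 against 7.78, 6.36, 5.63 and 5.91 at E14.5 and rose by 1.38 ± 0.33 (adjusted p = 0.0151, lost without the E12.5 WT or ERG Tg array labelled male, up to 0.0517); the female-labelled WT array of E14.5 was the highest. The 10 rises became 5 without the male-labelled ERG Tg array of E12.5. Igf2, the main fetal growth factor, named after its values were seen, changed by 0.01 (adjusted p = 0.984).

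Among loci of microRNAs, small RNAs that repress messages through the seed at bases 2 to 8, 124 were tested by RefSeq gene class; 7 rose and 16 fell. The probe sets carry the symbol of the locus and read whole-transcript label, so mature microRNA was not measured, and these loci were picked for naming after their values were seen except Mir15a, which is among the 15 largest rises. Mature sequences are printed, with the seed in capitals, for the loci the values turn on (RefSeq, GRCm38.p6).
miR-15a-5p of Mir15a, chr14:61632075-61632096, - strand: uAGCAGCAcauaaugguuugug
miR-16-5p of Mir16-1, chr14:61631936-61631957, - strand: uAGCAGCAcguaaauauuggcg
miR-144-3p of Mir144, chr11:78073047-78073066, + strand: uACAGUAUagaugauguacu
miR-377-3p of Mir377, chr12:109740553-109740574, + strand: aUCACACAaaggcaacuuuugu
miR-106b-5p of Mir106b, chr5:138165787-138165807, - strand: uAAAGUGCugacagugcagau
miR-93-5p of Mir93, chr5:138165574-138165596, - strand: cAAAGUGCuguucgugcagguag
The first pair share the seed AGCAGCA and the last pair the seed AAAGUGC. Mir15a read 5.99, 6.21, 5.93 and 5.11 at E12.5 against 9.04, 7.82, 8.0 and 7.96 at E14.5 and rose by 2.40 ± 0.26 (5.26-fold, adjusted p = 0.000647; 2.28 without the 3 arrays), with every E14.5 array above every E12.5 array. Its neighbour Mir16-1 on the same strand read 3.87, 3.93, 4.06 and 3.79 at E12.5 against 4.05, 3.64, 3.62 and 3.80 at E14.5, near the dim limit on all arrays, and changed by -0.14 (adjusted p = 0.415). Both microRNAs are known to be cut from 1 transcript, and their probe sets gave different values.

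Mir144, of the erythroid Mir144 and Mir451a locus, read 3.08, 3.10, 3.10 and 2.98 at E12.5 against 4.85, 4.22, 3.60 and 3.33 at E14.5 and rose by 0.94 ± 0.22 (adjusted p = 0.0141); all 4 E12.5 values and both E14.5 ERG Tg values were below the dim limit of 3.74, so the 2 E14.5 WT arrays carried it past the filter, and against that limit the rise is at least 1.2-fold. Mir451a changed by 0.33 ± 0.11 (adjusted p = 0.0483), a call that held in 1 of 8 fits that left out 1 array, without the female-labelled WT array of E12.5 (up to 0.135 in the others). Mir377 read 4.10, 3.37, 3.74 and 3.67 at E12.5 against 6.77, 5.54, 5.06 and 5.12 at E14.5 and rose by 1.90 ± 0.30 (adjusted p = 0.00294), and Mir323 rose by 1.39 ± 0.30 (adjusted p = 0.0106); both lie in the same imprinted region as Rian and, like it, were highest in the female-labelled WT array of E14.5. Mir17hg, the host transcript of the Mir17 to Mir92a-1 cluster, rose by 1.36 ± 0.17 (adjusted p = 0.00121), while Mir93 and Mir106b, of a paralogous cluster, fell by 0.53 ± 0.11 and 0.58 ± 0.19 (adjusted p = 0.0082 and 0.0484). The Mir106b call was lost without E12.5 WT male, E12.5 ERG Tg female, E14.5 WT male or E14.5 ERG Tg female (up to 0.14).

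Immediate early and stress genes were among the largest falls. Of 26, 15 fell and 1 rose (median -0.49, with -0.32 without the female-labelled WT array of E14.5 and -1.0 under a stricter filter that leaves fewer members). By genotype the list median was -0.93 in WT and -0.36 in ERG Tg. Jun, the AP-1 subunit, read 9.48, 9.73, 9.17 and 9.80 at E12.5 against 5.56, 6.39, 6.68 and 6.23 at E14.5 and fell by 3.33 ± 0.23 (10.1-fold, adjusted p = 0.000104; -3.07 without the 3 arrays). Fosb, its partner, read 7.90, 7.52, 7.17 and 7.85 at E12.5 against 4.99, 4.85, 4.57 and 4.62 at E14.5 and fell by 2.85 ± 0.15 (7.22-fold, adjusted p = 2.58e-05; -2.82 without the 3 arrays). Egr1, a growth-factor response factor, read 7.43, 8.03, 7.09 and 8.28 at E12.5 against 5.03, 5.96, 6.21 and 5.65 at E14.5 and fell by 2.0 ± 0.31 (adjusted p = 0.00257). All E12.5 arrays lay above all E14.5 arrays for the 3 genes. Nfkbia, the NF-kappaB inhibitor, fell by 2.06 ± 0.25 (adjusted p = 0.00108), and Fos and Atf3, named after their values were seen, by 1.39 ± 0.13 and 1.97 ± 0.26 (adjusted p = 0.00047 and 0.0014). Ccl3, an inflammatory chemokine of myeloid cells, read 9.40, 9.08, 8.93 and 9.63 at E12.5 against 5.14, 5.24, 6.42 and 5.67 at E14.5 and fell by 3.64 ± 0.24 (12.5-fold, adjusted p = 7.9e-05; -3.48 without the 3 arrays), the largest fall under the naming rule. Rgs1, a regulator of G-protein signalling, was below the dim limit on all E14.5 arrays and so has a bound only, at least 3.02-fold lower (adjusted p = 0.000104). The list mean was 6.82, 7.01, 6.59 and 6.96 at E12.5 against 5.69, 6.01, 6.04 and 5.99 at E14.5. For these genes too, stage and the handling of each stage's samples cannot be told apart.

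Genes of the ATF4 amino acid stress response fell too, 7 of 18 with 11 not passing. By genotype the list median was -0.55 in WT and -0.085 in ERG Tg. Trib3 read 6.86, 7.24, 6.43 and 6.72 at E12.5 against 4.60, 5.07, 5.42 and 5.49 at E14.5 and fell by 1.67 ± 0.23 (adjusted p = 0.00165). Sesn2, an ATF4 and p53 target, read 7.72, 7.85, 7.34 and 7.52 at E12.5 against 5.90, 5.99, 6.05 and 6.09 at E14.5 and fell by 1.60 ± 0.12 (adjusted p = 0.00012). Ddit3, the CHOP factor, fell by 1.42 ± 0.23 (adjusted p = 0.00335) and Chac1, which degrades glutathione, by 1.41 ± 0.30 (adjusted p = 0.00928). No E14.5 array reached the E12.5 range for these genes. Of 14 p53 targets 4 fell and 1 rose: besides Sesn2, Mdm2 fell by 0.62 ± 0.11 (adjusted p = 0.00424) and Pmaip1, NOXA, by 0.76 ± 0.12 (adjusted p = 0.00292), while Trp53inp1 rose by 0.49 ± 0.14 (adjusted p = 0.031), kept only without the female-labelled WT array of E12.5 or the male-labelled ERG Tg array of E14.5 (up to 0.0985 in the other 6 fits). Of 24 ribosome biogenesis genes 3 fell and 1 rose, with Bop1 lower by 0.76 ± 0.10, Pes1 by 0.57 ± 0.11 and Nolc1 by 0.33 ± 0.09 and fibrillarin, Fbl, higher by 0.47 ± 0.09 (adjusted p = 0.00179, 0.00734, 0.023 and 0.00625; Nolc1 lost without E12.5 WT female, E12.5 WT male, E14.5 ERG Tg female or E14.5 ERG Tg male, up to 0.06).

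Several of the 15 largest falls were short structural RNAs. Rnu3a, the U3 RNA of ribosome processing, read 9.13, 9.33, 9.18 and 8.66 at E12.5 against 6.79, 6.04, 6.45 and 6.50 at E14.5 and fell by 2.63 ± 0.18 (adjusted p = 0.000104). Rnu12, the U12 RNA of the minor spliceosome, read 8.39, 8.87, 8.28 and 8.39 at E12.5 against 6.12, 5.98, 5.54 and 6.03 at E14.5 and fell by 2.56 ± 0.14 (adjusted p = 2.66e-05). Scarna13, a guide RNA of Cajal bodies, fell by 2.42 ± 0.12 (adjusted p = 2.43e-05). In all 3 every E14.5 array was lower by over 1 log2 unit than every E12.5 array. By RefSeq class, 12 of 51 small nucleolar RNAs fell and 9 rose, against 9.79% lower and 17.5% higher among all genes. The share that fell was thus above that of all genes and the share that rose was close to it, with members going both ways. Among noncoding RNAs of RNA polymerase III named after their values were seen, n-R5s136, a copy of 5S ribosomal RNA, fell by 1.79 ± 0.09 (adjusted p = 2.43e-05), Rpph1, of ribonuclease P, by 1.13 ± 0.13 (adjusted p = 0.000917), and Rmrp by 0.62 ± 0.14 (adjusted p = 0.0125). Terc, the telomerase RNA, fell by 0.69 ± 0.10 (adjusted p = 0.00176). AY036118 and AI506816 were also among the 15 largest falls, with changes of -2.40 and -2.15 (adjusted p = 0.00047 and 0.0111).

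Interferon and antigen presentation genes were close to the background: 4 of 20 interferon genes rose and 16 did not pass, and of 12 antigen presentation genes B2m rose by 0.31 ± 0.09 (adjusted p = 0.0366, lost without E12.5 WT male, E12.5 ERG Tg male, E14.5 WT male, E14.5 ERG Tg female or E14.5 ERG Tg male, adjusted p up to 0.104). Rsad2, an antiviral gene, rose by 1.22 ± 0.27 (adjusted p = 0.0118; 5.69, 5.31, 5.20 and 5.12 at E12.5 against 7.71, 6.72, 5.59 and 6.17 at E14.5), with the female-labelled ERG Tg array of E14.5 inside the E12.5 range. The 4 interferon rises became 2 without the male-labelled WT array of E12.5 or either E12.5 ERG Tg array, and 1 without either E14.5 ERG Tg array.

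Markers of neighbouring tissues differed between single arrays. Of 8 gut and pancreas markers 1, Cpa1, rose and 1, Ptf1a, fell. Cpa1, pancreatic carboxypeptidase, read 4.61, 4.59, 4.67 and 4.89 at E12.5 against 4.57, 6.98, 7.83 and 6.08 at E14.5. The E14.5 arrays other than WT labelled female were above all E12.5 arrays, and its rise of 1.68 ± 0.53 (adjusted p = 0.0442) held in 1 of 8 fits that left out 1 array, without the female-labelled WT array of E14.5 (adjusted p up to 0.118 in the others). The pancreatic protease Ctrb1, named after its values were seen, read 4.52, 4.42, 4.40 and 5.0 at E12.5 against 4.33, 5.69, 6.45 and 5.0 at E14.5, in a like order at E14.5, and did not pass (adjusted p = 0.136). Ptf1a, a pancreatic factor, was below 4 on all arrays and below the dim limit at E14.5 and its call was likewise not stable (adjusted p up to 0.0675 when single arrays were left out). Of 10 muscle genes 1, Tnni1, fell (0.78 ± 0.22, adjusted p = 0.0318, up to 0.0865 when single arrays were left out and kept only without the female-labelled ERG Tg array of E12.5 or the male-labelled ERG Tg array of E14.5); cardiac actin, Actc1, read 7.58, 7.99, 7.36 and 8.72 at E12.5 against 7.17, 6.71, 8.40 and 9.39 at E14.5 and was highest in the ERG Tg arrays labelled male at both stages. Neural markers (7 tested) did not pass, with changes from -0.39 to 0.34, and of 6 skin and cartilage markers Col2a1 fell by 0.39 ± 0.12 (adjusted p = 0.0386, up to 0.12 with single arrays left out). The part of such tissue in the results above was not tested; Igfbp1, Adh1 and Hamp share with Cpa1 their lowest E14.5 value in the WT array labelled female and their highest in the ERG Tg array labelled female.

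The stage change was also taken within each genotype, 2 arrays against 2, with limma's spread shared over the 8 arrays. In WT 951 genes (6.26%) were higher and 605 (3.98%) lower, and in ERG Tg 1335 (8.79%) were higher and 420 (2.76%) lower. The 2 comparisons share no arrays, but they share each gene's spread, so a call in both is not independent agreement. Of the WT calls 51.6%, and of the ERG Tg calls 45.8%, were called in both, 803 genes, of which 800 changed in the same direction. Over all 15195 genes the 2 stage changes had a Pearson correlation of 0.745 and a Spearman correlation of 0.697, given as descriptions across genes. Calls within WT ran from 74, without the male-labelled WT array of E12.5, to 2051, without the male-labelled WT array of E14.5, and calls within ERG Tg from 78, without the female-labelled ERG Tg array of E14.5, to 2606, without either E14.5 WT array, so the counts within a genotype rest on single arrays.

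**Figure D4:**
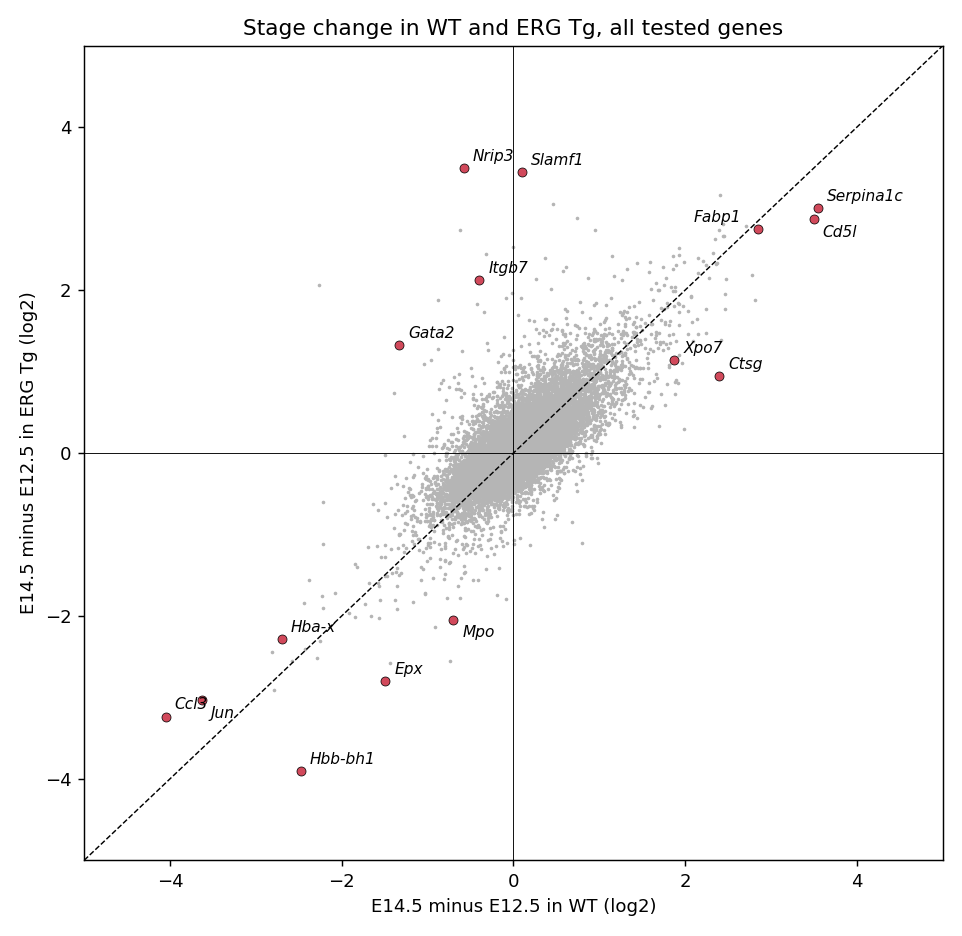
Stage change in WT (x axis) and in ERG Tg (y axis), both E14.5 minus E12.5 on the log2 scale, for 15195 genes (grey) with genes named in the text in red; the dashed line is equality. Embryonic globins, Jun and Ccl3 fall and Serpina1c, Fabp1 and Cd5l rise in both genotypes, while Nrip3, Itgb7, Slamf1 and Gata2 have negative changes in WT and positive changes in ERG Tg; of these, Nrip3 and Itgb7 passed the test of the difference.

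The test of the difference itself, ERG Tg minus WT, passed for 2 genes (0.0132%). Nrip3 read 4.64, 4.80, 4.45 and 4.75 at E12.5 against 4.28, 4.01, 8.42 and 7.77 at E14.5. It was low on 6 arrays and high on the 2 E14.5 ERG Tg arrays, with a difference in stage change of 4.07 ± 0.32 (adjusted p = 0.0159). Itgb7, an integrin of lymphocytes and mast cells, read 5.12, 5.06, 4.84 and 5.10 at E12.5 against 4.71, 4.68, 7.27 and 6.92 at E14.5, with a difference of 2.52 ± 0.22 (adjusted p = 0.0203). It had the same pattern of arrays. The next 3 by p, Tmem40, Gem and Slamf1, differed by 2.54, 3.37 and 3.35 and did not pass (adjusted p = 0.076, 0.0772 and 0.111). With all 16 arrays in the fit 36 genes passed; without single arrays between 0 and 18 did, 18 without the male-labelled WT array of E14.5, and at an unadjusted p under 0.05 there were 983.

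The stage change without the GATA1s allele was also set against that of the 8 arrays with it. The difference, without minus with, passed for 59 genes (0.388%) in the positive and 196 (1.29%) in the negative direction, and 170 of these 255 genes were among the 4149 stage calls. Over all genes the 2 stage changes, which share no arrays, had a Pearson correlation of 0.799. Median changes of hepatocyte lists were larger in GATA1s carriers: the median change of the plasma protein list was 1.20 without the allele and 2.31 with it, and that of the urea and amino acid list 0.59 and 1.49. The plasma list mean at E12.5 was 6.39 to 6.541 in carriers, below the 6.755 to 7.286 without the allele. At E14.5 the ranges overlapped, 8.177 to 8.905 in carriers and 8.022 to 8.694 without the allele. Cps1, which did not pass here, changed by 2.68 in carriers (difference -2.54 ± 0.25, adjusted p = 0.000681), and Kitl, stem cell factor, changed by 0.65 here and 2.44 in carriers (difference -1.79 ± 0.19, adjusted p = 0.000914). Fosb, which fell by 2.85 here, changed by -0.17 in carriers (difference -2.68 ± 0.25, adjusted p = 0.000492), and Ccl3 by -1.32 (difference -2.32 ± 0.26, adjusted p = 0.000936). Hsd3b6, a steroid dehydrogenase, read 11.22, 11.19, 10.92 and 10.83 at E12.5 against 9.40, 9.17, 8.89 and 8.93 at E14.5 here, fell by 1.94 ± 0.09 (adjusted p = 2.43e-05) and changed by -3.45 in carriers (difference 1.50 ± 0.16, adjusted p = 0.000936). Red cell membrane genes had a median change of 0.34 without the allele and -0.09 with it. Xpo7 and Ube2o, higher above, changed by 0.25 and -0.03 in carriers (differences 1.26 and 1.04, adjusted p = 0.0156 and 0.0443). The embryonic globins did not pass: Hba-x changed by -1.83 and Hbb-bh1 by -2.49 in carriers (adjusted p of the difference = 0.0815 and 0.274). The number of genes past this test ran from 74 without the female-labelled WT/GATA1s array of E12.5 to 745 without the male-labelled WT array of E14.5.

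**Figure D5:**
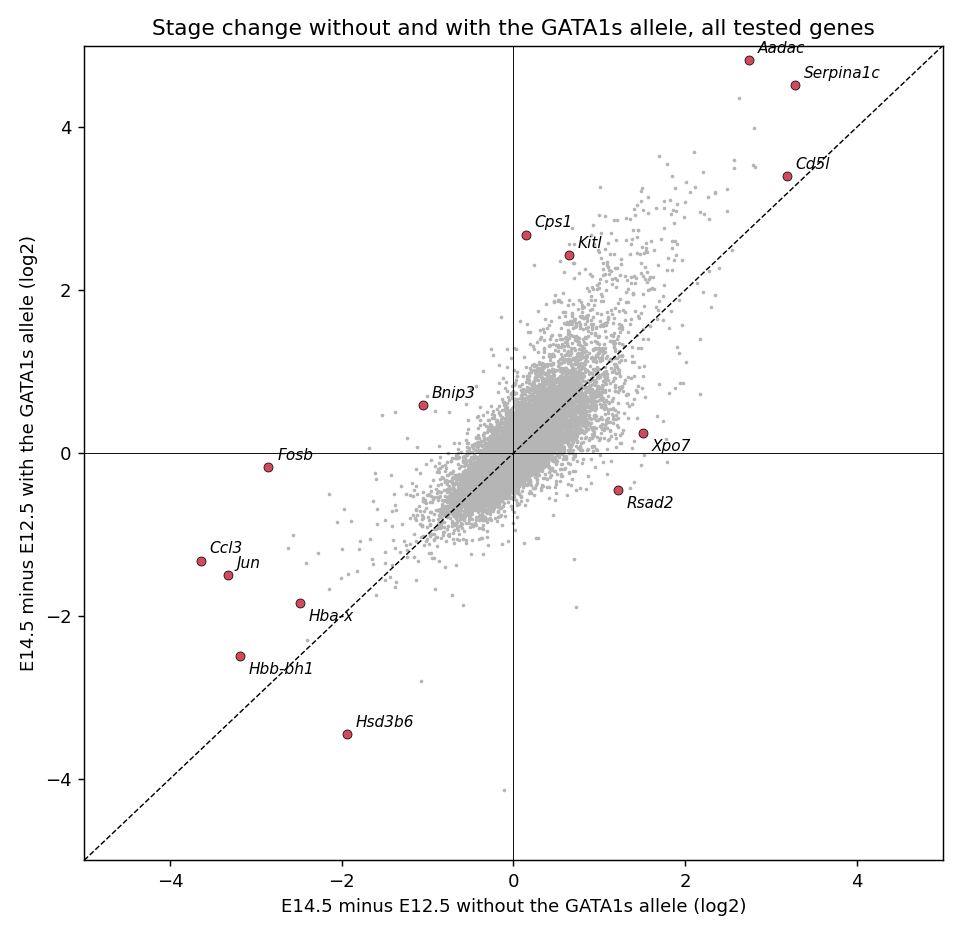
Stage change in the 8 arrays without the GATA1s allele (x axis) and in the 8 arrays with it (y axis), E14.5 minus E12.5 on the log2 scale, for 15195 genes (grey) with genes named in the text in red; the dashed line is equality. Cps1 and Kitl lie above the line, Fosb, Jun and Ccl3 fall less in carriers, and Xpo7 and Rsad2 lie below the line.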

How the data were processed

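The values were the deposited log2 signals of the series' value table, which the authors made from Affymetrix whole-transcript arrays with RMA (background correction, quantile normalization and probe set summary), per the submitters' processing notes. Probe sets were named from GEO's platform annotation: of 28270, 21780 had 1 gene symbol, 1617 several and 4873 none. For the 996 genes with several probe sets the 1 with the highest mean over the 8 arrays was kept. A gene was tested where its signal was above 3.74, the 30th percentile of all values (the dim limit), on at least 2 arrays.

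The stage change was fitted with limma 3.58.1 (R 4.3.3) on the 8 arrays without the GATA1s allele, with genotype as block, and p-values were adjusted by Benjamini-Hochberg over 15195 genes. Differences between stage changes were contrasts of group means. The scripts were tested on simulated data. The genes named were the 15 largest rises and 15 largest falls changed alike in all 4 pairs, up to 4 called members of each list, the globins, Erg, Gata1, Gata2, sex markers and the 5 smallest p-values of each difference; others are marked. The members, lists and tests were chosen with earlier results of these data known. Alternatives were the filter, further normalization, centring, labelled sex, the pairs as block, all 16 arrays, array weights, the variance model, all probe sets and leaving out arrays. Promoter and microRNA sequences came from RefSeq (GRCm38.p6).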

Additional observations from a re-analysis of the deposited data

Results flagged for a closer look

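In 7 of 86 groups tested (43 gene lists at 2 stages), 1 array of a stage stood apart from the other 3 in the mean log2 signal of the list by Dixon's test, which chance passes in about 1 in 20 groups. The male-labelled ERG Tg array of E12.5 was the lowest of its stage in 4 lists. Its mean was 8.74 for red cell membrane genes (others 9.48 to 9.52), 8.63 for late red cell genes (others 9.0 to 9.07), 5.96 for hepatic glucose genes (others 6.14 to 6.18) and 4.88 for drug metabolism genes (others 5.11 to 5.15). The female-labelled ERG Tg array of E12.5 was the highest in eosinophil, basophil and mast cell genes, at 6.91 (others 6.83 to 6.84). The female-labelled WT array of E14.5 was the highest in mitosis genes, at 9.23 (others 8.87 to 8.92), and the lowest in immediate early genes, at 5.69 (others 5.99 to 6.04).

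The stage change differed between ERG Tg and WT in 2 genes by limma's test of the difference, Nrip3 by 4.07 and Itgb7 by 2.52, both with the larger change in ERG Tg. It differed between arrays without and with the GATA1s allele in 255 genes. The differences that follow are the change without minus the change with the allele, on the log2 scale. Among hepatocyte genes they were -2.08 for Aadac, -2.54 for Cps1, -1.51 for Gys2, -1.50 for Hmgcs1, -1.31 for Slc27a2, -1.03 for Mttp, -1.15 for Gpc3, -0.65 for Nr5a2, -1.14 for Hnf4a, -0.99 for Afp, -1.31 for Ttr, -1.17 for the transferrin gene Trf and -1.01 for Igf2. Among stress and immediate early genes they were -2.32 for Ccl3, -1.83 for Jun, -2.68 for Fosb, -0.89 for Fos and -1.28 for Atf3.

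Among blood and stromal genes the differences were 1.26 for Xpo7, 1.04 for Ube2o, -1.71 for Car1, 0.76 for Cdkn2d, 0.76 for Igll1, 0.81 for Itgb7, -0.73 for Mpo, -1.16 for Elane, -0.87 for Prtn3, -1.03 for Vcam1 and -1.79 for Kitl. Of the remaining genes named here, Pkm differed by -0.90, Bnip3 by -1.64, Rsad2 by 1.67, Hsd3b6 by 1.51, Scarna13 by -1.06 and Rpph1 by -0.94. Gpc3, Hnf4a and Kitl thus had the more positive stage change in carriers, and Xpo7, Ube2o and Cdkn2d in the arrays without the allele.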

How the results depend on the processing

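No called test of a named gene changed direction under the alternatives run. The balance of calls did change: 2662 higher and 1487 lower became 2108 higher and 2198 lower after a further quantile normalization. The balance within the replication and megakaryocyte lists turned as well, as given above. Of the named genes' tests, 11 lost and 3 gained the call after a further quantile normalization, 5 lost it after centring, and 189 lost it without the 3 arrays of mixed sex markers. The count of stage calls stayed between 3712 and 5782 under the settings that kept all 8 arrays, was 2454 to 4021 when single arrays were left out (1657 to 2803 higher, 797 to 1313 lower), and was 23 (10 higher, 13 lower, all 23 past 2-fold) without the 3 arrays of mixed sex markers, where 5 arrays remained. With all probe sets in the test 2457 were lower, and 751 passed 2-fold against 555. Within WT the 1556 calls became 2687 with labelled sex added, 2396 with all 16 arrays in the fit, 756 with array weights, and 74 to 2051 with single arrays left out; within ERG Tg the 1755 became 3505 with array weights and 78 to 2606. The 2 genes of the ERG Tg difference became 1 under the stricter filter, 4 with labelled sex or with a trended robust variance, 36 with all 16 arrays, 0 with array weights or all probe sets (983 had an unadjusted p under 0.05 in limma), and 0 to 18 with single arrays left out. The 255 of the GATA1s difference became 144 with all probe sets and 74 to 745. The cause of these changes in count was not tested. Pairs of 1 genotype and labelled sex as block gave 4635 stage calls. The deviations of such pairs correlated at 0.362 in WT and 0.0812 in ERG Tg across genes. These values differ between genotypes and do not settle whether labelled sex pairs the samples. The main fit left the pairs out. Counts of 4 of 4 pairs rest on labels that sex markers went against or mixed on 3 arrays. Below the dim limit a signal gives only a bound, which holds for 49 genes called higher that were below it on every E12.5 array and 41 called lower that were below it on every E14.5 array. Genes below it on only some arrays of a stage keep a printed change, whose size is less certain.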
